A study of Mus musculus with 6 samples.

Results

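The genes examined here encode the proteins of the cytosolic ribosome. They were taken from the gene table by symbol (Rps or Rpl followed by a number, with the stalk genes Rplp0, Rplp1 and Rplp2 and with Rpsa) and by a protein-coding entry, leaving out Rpl29, which gave 83 of the 45777 genes listed, 32 named Rps and 51 named Rpl. Rack1, which encodes a ribosomal protein under another name, was read beside them. Liver RNA came from 6 male C57BL/6 mice fed a high-fat diet (HFD), 1 library per mouse. All 6 mice were homozygous for a floxed Fpn (Slc40a1) allele, which the methods trace to a 129S line backcrossed to C57BL/6J. The 3 Fpn-LKO mice carried Alb-Cre as well, and the 3 littermate controls (LT) did not. The albumin promoter drives Cre in hepatocytes, so Kupffer, endothelial and other liver cells keep the gene. The labels give no age. The library names number replicate 3 of each group after all the other libraries, and what this numbering marks was not tested. The study asked what loss of the iron exporter ferroportin from hepatocytes does to the liver on this diet, and the comparison below asks it of the ribosomal protein genes.

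The cytosolic ribosome is built from a small subunit, whose proteins are named Rps, and a large subunit, whose proteins are named Rpl. The small subunit reads the codons, and the large subunit joins the amino acids and passes the chain out through a tunnel. Most of these proteins are used in a single copy per ribosome, and most of their mRNAs are made at high levels. Most of these mRNAs start with a C followed by a run of pyrimidines (the TOP tract), by which the growth pathway mTORC1 and its effector LARP1 set how much of them is translated. The mouse genome also holds many processed pseudogenes of these genes, which are copies of a spliced mRNA inserted elsewhere, and their sequence can be nearly that of the parent.

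The stretch around the annotated start of 6 of these genes is shown because the run of pyrimidines is what the family's mRNAs are known to share. Each runs 5′ to 3′ on the gene's strand, from 30 bases before the RefSeq start to 20 bases after it (GRCm38.p6), with the longest run of C and T that touches the 10 bases on either side of the start in capitals. They lie at chr4:86857348-86857397 (Rps6, minus strand), chr17:33955646-33955695 (Rps18, minus), chr3:90213629-90213678 (Rps27, minus), chr7:141447621-141447670 (Rplp2, plus), chr3:28805478-28805527 (Rpl22l1, plus) and chr5:115559437-115559486 (Rplp0, plus).
Rps6: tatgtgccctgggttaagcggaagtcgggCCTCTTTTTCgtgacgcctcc
Rps18: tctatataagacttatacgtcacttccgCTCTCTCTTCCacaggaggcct
Rps27: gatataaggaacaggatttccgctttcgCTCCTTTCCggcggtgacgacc
Rplp2: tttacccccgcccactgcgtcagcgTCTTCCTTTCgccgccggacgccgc
Rpl22l1: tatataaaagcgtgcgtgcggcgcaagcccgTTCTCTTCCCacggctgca
Rplp0: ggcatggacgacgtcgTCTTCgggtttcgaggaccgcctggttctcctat

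In Rps6, which encodes the substrate of S6 kinase, and in Rps18, Rps27, Rplp2 and Rpl22l1 the run is 9 to 11 bases long, and in Rplp0 the longest run at the annotated start is 5 bases. RefSeq promoters were found for 64 of the 83 genes, 76 promoters in all, each of 300 bases. A run of at least 8 pyrimidines within 10 bases of the start was present in 22 of the 76 (28.9%), against 7.5% of 20797 promoters of protein-coding genes. The letters CTCTTTC on the gene's strand were found in 19.7% against 3.9%, CCGGAAG on either strand in 35.5% against 11.7%, and AAGATGGC on either strand in 10.5% against 3.1%. TATAAA on the gene's strand was found in 9.2% against 8.2%. CTCTTTC can lie inside the pyrimidine run and the other motifs cannot. These are matches of letters in a fixed window, and an annotated start can lie some bases away from the one in use.

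Slc40a1, the deleted gene, was read first as a check of the labels. It had 154, 180 and 126 CPM (the count scaled to the TMM-adjusted library size) in the LT mice, replicates 1 to 3, and 143, 143 and 176 CPM in the Fpn-LKO mice, replicates 1 to 3, so the groups overlapped and the log2 fold change was 0.0073 (SE 0.16, adjusted p = 0.995, edgeR quasi-likelihood). The count covers the whole gene and does not show whether reads of the deleted exons were lost, so it does not check the deletion itself, and each direction below holds for the libraries as they are labelled. Total counts on genes lay between 43086184 and 47778683 per library. Hepatocyte markers such as Alb were high in every library (summed level of 6 markers, 63694 to 79237 CPM). Of the 6 pancreatic acinar markers 5 were at 0, and the other, Cela1, had 10.4 to 27.0 CPM. The 9 lymphocyte markers summed to at most 5.91 CPM. The mice are taken as separate animals from the labels, and p-values set the difference between the genotypes against the spread within the groups of these 6 samples.

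Between the genotypes the ribosomal protein genes did not differ detectably. Of the 83 genes 80 entered the fit, and 0 of them passed 0.05 after adjustment (edgeR quasi-likelihood), where 0.0232% of the 17274 genes tested did. At an unadjusted p under 0.05, 0 were higher and 0 were lower in the libraries labelled Fpn-LKO, against 2.62% and 2.19% of all genes. The smallest unadjusted p of the family by that edgeR test was 0.0613. With edgeR's exactTest 0 of the 80 were past the adjusted threshold (0.365% of all genes) and 0 had an unadjusted p under 0.05, and with DESeq2 these counts were 0 (0.417% of all genes) and 1. With the replicate number as a block, 1 gene was higher (Rplp0) and 1 lower (Rpl22l1) at an unadjusted p under 0.05, with adjusted p-values of 0.917 and 0.856.

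The median log2 fold change of the 80 genes was -0.013, beside -0.0040 for all genes tested. The fold change was positive for 34 of the 80 and negative for 46. For 77 of the 80 it was smaller than 0.25 in size, and the 95% interval of the fold change stayed within 1.5-fold for 72 and within 2-fold for 76. The median standard error was 0.151, close to the 0.146 of the 6879 genes with a mean of at least 10 CPM. The 32 small-subunit genes had a median log2 fold change of -0.032 and the 48 large-subunit genes of -0.0097.

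**Figure D1:**
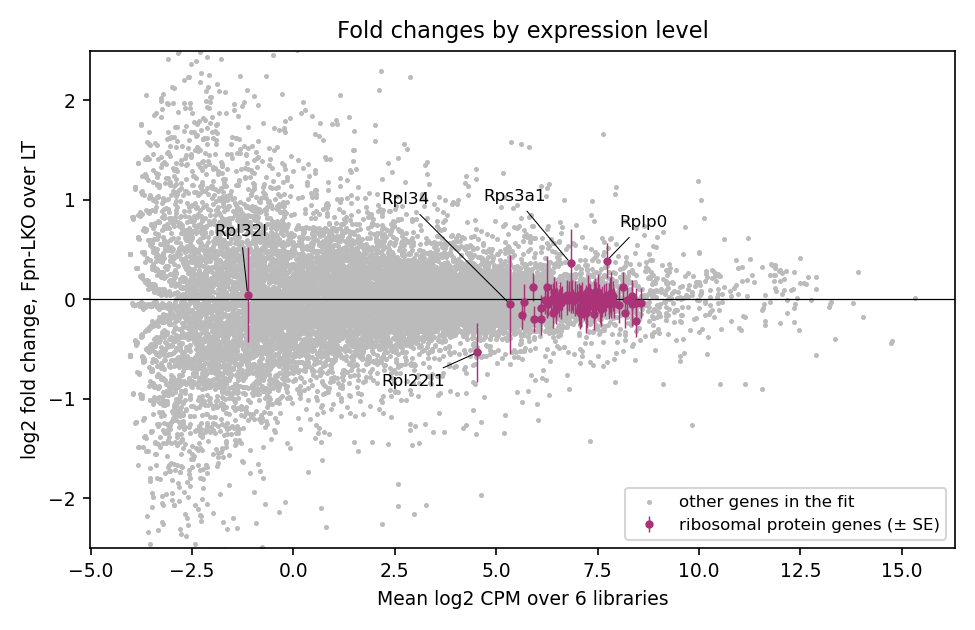
log2 fold change (Fpn-LKO over LT) of each gene in the fit against its mean log2 CPM over the 6 libraries, with ribosomal protein genes as purple points with their standard error and all other genes as grey points; genes beyond 2.5 in either direction lie outside the axis. The ribosomal protein genes form a tight group around 0, and Rplp0 (0.39) and Rpl22l1 (-0.53) lie farthest from it.

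What set the libraries apart was a level shared by nearly the whole family, and it differed between mice of the same genotype. Summed over the 83 genes, the level was 12470, 10897 and 14043 CPM in the LT mice, replicates 1 to 3, and 11114, 11646 and 14288 CPM in the Fpn-LKO mice, replicates 1 to 3. In each group replicate 3 was highest, and the groups overlapped, with means of 12470 ± 1573 and 12349 ± 1700 CPM (SD, n = 3 each) and a ratio of 0.990. As a share of all counts the family took 1.30%, 1.10% and 1.34% in LT and 1.13%, 1.17% and 1.39% in Fpn-LKO. In deposited TPM, which is scaled to transcript length, the sums were 23123, 17755 and 21086 in LT and 18070, 22776 and 24649 in Fpn-LKO, so on that scale LT replicate 1 passed replicate 3. In bulk tissue, fewer cells of a type and less RNA per cell cannot be told apart.

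The shift was seen gene by gene. Each gene's log2 CPM was set against its own mean over the 6 libraries, for the 79 genes with a mean of at least 10 CPM. The median of these deviations was 0.035, -0.19 and 0.18 in the LT mice, replicates 1 to 3, and -0.14, -0.076 and 0.20 in the Fpn-LKO mice, replicates 1 to 3. The same median over all genes with at least 10 CPM lay between -0.017 and 0.026, and TMM scaling itself holds that median near 0, so a deviation here is relative to the bulk of genes. In LT replicate 3 and in Fpn-LKO replicate 3, 76 of the 79 genes stood above their own mean, whereas in LT replicate 2 only 5 did and in Fpn-LKO replicate 1 only 2. Both subunits shared the shift, and they were farthest apart in Fpn-LKO replicate 1, with medians of -0.16 for the small-subunit and -0.13 for the large-subunit genes.

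The order of the libraries was then counted gene by gene, and since this order was read from the family itself the counts are a description. It was counted in CPM only, and in TPM the order within LT can differ, as it did for the sum. LT replicates 2, 1, 3 stood in that order from low to high in 65 of the 79 genes, against 21.6% of all genes with at least 10 CPM, and Fpn-LKO replicates 1, 2, 3 in 57, against 21.1%. Both orders held in 49 genes, against 6.31% of all genes. Replicate 3 was the highest of each group in 67, against 17.6%. Within groups, the median SD of log2 CPM was 0.195 for the family and 0.178 for all genes with at least 10 CPM. Those genes were not matched to the level of the family, whose median gene had 138 CPM. Beside that unmatched set the family spread about as far, but it moved together.

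**Figure D2:**
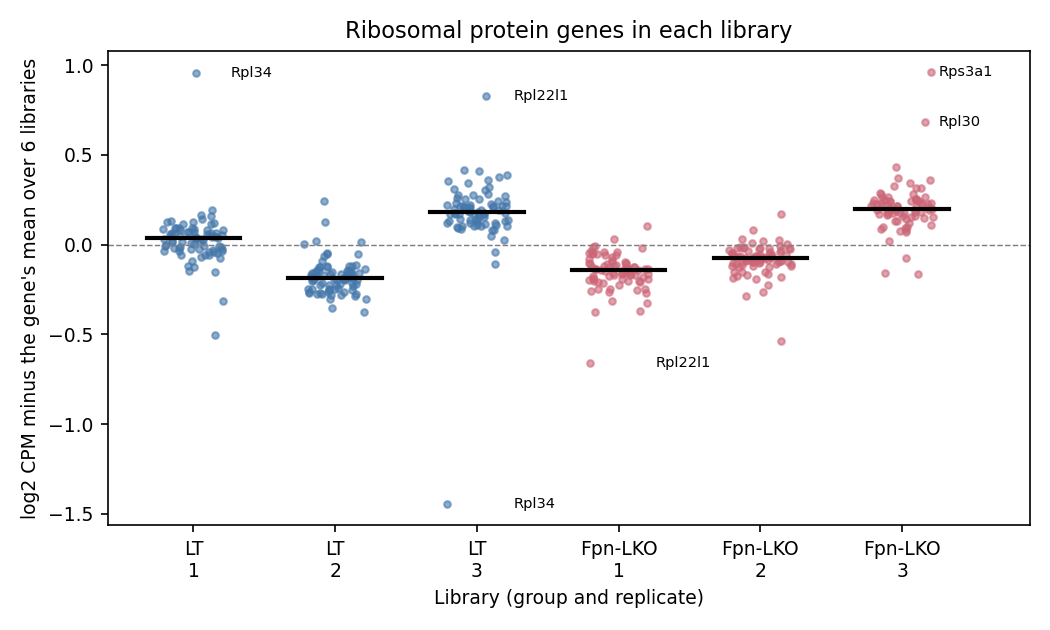
Deviation of each of the 79 ribosomal protein genes from its own mean log2 CPM over the 6 libraries (points, blue for LT and red for Fpn-LKO), with the median of each library as a black bar. The medians run from -0.19 in LT replicate 2 to 0.20 in Fpn-LKO replicate 3, and the genes farthest from the bars are named (Rpl34, Rpl22l1, Rps3a1 and Rpl30).

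Rps6 shows the pattern of a typical member. It had 223, 192 and 247 CPM in the LT mice and 197, 208 and 263 CPM in the Fpn-LKO mice, with a log2 fold change of 0.0080 (SE 0.16) and a 95% interval of 0.779- to 1.30-fold. In CPM replicate 3 was the highest of each group, and the groups overlapped over nearly their whole range. In deposited TPM Rps6 had 225, 173 and 204 in the LT mice and 175, 223 and 249 in the Fpn-LKO mice. On that scale LT replicate 1 passed replicate 3, as it did for the sum of the family.

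Genes around the ribosome were read from lists of the translation machinery. Rack1, a scaffold on the small subunit, had 296, 245 and 338 CPM in the LT mice and 246, 276 and 330 CPM in the Fpn-LKO mice. The 9 elongation factor genes summed to 6407, 5529 and 6324 CPM and 5635, 5735 and 6754 CPM. The median deviation of those with a mean of at least 10 CPM was lowest in LT replicate 2 (-0.12) and highest in LT replicate 3 (0.15). Of the 53 ribosome biogenesis genes, those with a mean of at least 10 CPM (among them the nucleolar Ncl and Npm1) entered the median. Their median deviations were -0.060, -0.17 and 0.26 in LT and -0.22, -0.048 and 0.25 in Fpn-LKO, with the same highest libraries.

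The initiation factors and the mitochondrial ribosome kept the same order of libraries with smaller medians, and the proteasome did not. These medians too were taken over the genes of each list with a mean of at least 10 CPM. From the list of 37 initiation factor genes the median deviation was -0.0080, -0.014 and 0.081 in LT and -0.10, -0.018 and 0.13 in Fpn-LKO. From the list of 78 mitochondrial ribosomal protein genes it was -0.0096, -0.11 and 0.091 in LT and -0.014, 0.0027 and 0.035 in Fpn-LKO, so replicate 3 was again the highest of each group. From the list of 39 proteasome genes it was 0.13, -0.035 and -0.19 in LT and 0.024, -0.071 and 0.15 in Fpn-LKO, so LT replicate 3 was their lowest library and Fpn-LKO replicate 3 their highest.

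**Figure D3:**
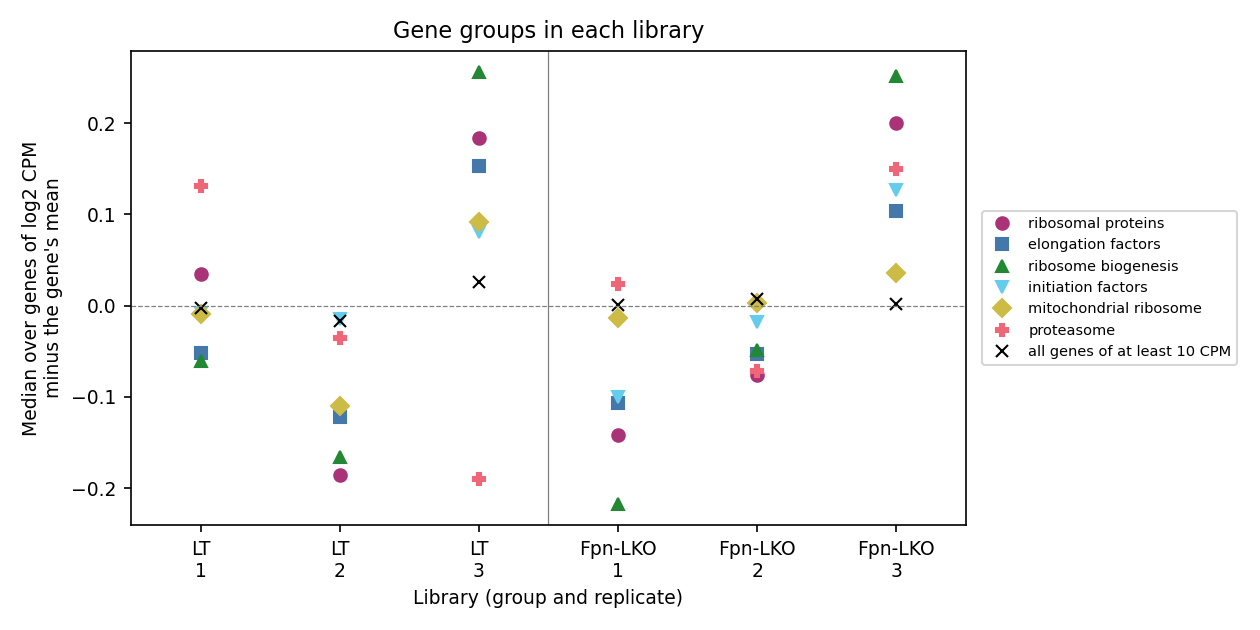
Median deviation (log2 CPM minus the gene's mean over the 6 libraries) by library, over the genes with a mean of at least 10 CPM in each of 6 gene groups and over all such genes. Ribosomal protein, biogenesis and elongation factor genes are highest in replicate 3 of each group, whereas proteasome genes are lowest in LT replicate 3 (-0.19) and the median of all genes is held near 0 by the scaling.

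With edgeR 0 genes of the translation machinery lists were past the adjusted threshold, and with DESeq2 1 was (Riok2). At an unadjusted p under 0.05 by the edgeR quasi-likelihood fit, where 2.19% of all genes were lower and 2.62% higher, 1 of 53 biogenesis genes was lower (Riok2, a kinase of small-subunit maturation, with 29.0, 34.6 and 30.4 CPM in the LT mice and 21.3, 19.8 and 22.1 CPM in the Fpn-LKO mice, adjusted p = 0.570), 1 of 37 initiation factor genes was lower (Eif3j1, adjusted p = 0.982) and 1 of 78 mitochondrial ribosomal protein genes was lower (Mrps26, adjusted p = 0.982). None of the 8 elongation factor genes in the fit, 16 mTORC1 and TOP regulators or 11 snoRNA host genes had an unadjusted p under 0.05. Among the regulators the smallest was that of Eif4ebp2, an inhibitor of initiation, with 38.0, 44.6 and 27.3 CPM in the LT mice and 36.2, 71.5 and 46.1 CPM in the Fpn-LKO mice. Among the snoRNA hosts it was that of Gas5, a TOP transcript itself, with 19.3, 31.8 and 35.9 CPM in the LT mice and 19.96, 17.7 and 22.6 CPM in the Fpn-LKO mice. The median log2 fold changes of these lists lay between -0.092 (snoRNA hosts) and 0.0039 (initiation).

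Red cell and macrophage transcripts varied between the same libraries. The 5 erythroid markers, hemoglobin genes and Alas2, summed to 407, 941 and 351 CPM in the LT mice and 1006, 1243 and 473.5 CPM in the Fpn-LKO mice, lowest in replicate 3 of each group. The 7 Kupffer cell and macrophage markers summed to 192, 248 and 197 CPM in the LT mice and 194, 156 and 363 CPM in the Fpn-LKO mice, highest in Fpn-LKO replicate 3. The 5 RNAs examined without a poly(A) tail (Rn7s1, Rn7s2, Rn7sk, Rpph1 and Rmrp) took 7.65%, 7.83% and 8.76% of the counts in LT and 10.2%, 3.29% and 4.49% in Fpn-LKO. Their part in the shared level was not tested.

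The stalk of the large subunit, on which elongation factors dock, held the gene that separated the groups. Rplp0, on chromosome 5 (115559467 to 115563729, GRCm38), encodes its base. It had 149, 206 and 206 CPM in the LT mice and 210, 239 and 286 CPM in the Fpn-LKO mice, and the lowest Fpn-LKO library was above the highest LT library. The log2 fold change was 0.39 (SE 0.18), with a 95% interval of 0.984- to 1.75-fold, an unadjusted p of 0.0613 and an adjusted p of 0.982 from the edgeR quasi-likelihood fit. It was the only one of the 80 genes whose groups did not overlap with Fpn-LKO higher, against 5.25% of all genes, and 0 were without overlap and lower, against 5.34%.

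The other stalk genes showed no such separation. Rplp1 had 192, 143 and 206 CPM in the LT mice and 167, 177 and 224 CPM in the Fpn-LKO mice. Rplp2 had 45.6, 47.98 and 64.5 CPM in the LT mice and 46.2, 48.7 and 47.2 CPM in the Fpn-LKO mice, without the high value that most of the family had in Fpn-LKO replicate 3. Rpl12, which anchors the stalk, had 148, 133 and 195 CPM in the LT mice and 115, 139 and 179 CPM in the Fpn-LKO mice. Their log2 fold changes were 0.071 (SE 0.18), -0.15 (SE 0.15) and -0.14 (SE 0.21).

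Rplp0 has 4 near-identical copies among the genes counted. On average the reads of Rplp0 were higher in the Fpn-LKO mice and those of its copies were lower. Within the Fpn-LKO mice both rose from replicate 1 to replicate 3. The copies were found by BLAST at 90% identity or more, and those named here were picked with their values in view. The copies of Rplp0 summed to 148, 67.5 and 193 CPM in the LT mice and 69.98, 72.8 and 89.4 CPM in the Fpn-LKO mice. Most of this was Gm8730, a pseudogene on chromosome 8, with 114, 52.2 and 145 CPM in the LT mice and 53.7, 55.9 and 67.5 CPM in the Fpn-LKO mice. With the copies' reads added, Rplp0 had 298, 273 and 400 CPM in the LT mice and 279, 312 and 376 CPM in the Fpn-LKO mice. The groups then overlapped, and the log2 fold change was -0.0044 (SE 0.19) where the gene alone gave 0.39.

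The sequences of 4 genes and a copy of each are shown because they show how little separates the reads of a parent from those of its copy. Each pair covers 60 bases of the coding sequence (the same bases of the gene for both, from GENCODE M21 transcripts, GRCm38) in the stretch with the most differences, and the differing bases are in capitals. The stretches are bases 388 to 447 of the coding sequence of Rplp0, 102 to 161 of Rpl34, 66 to 125 of Rpl30 and 208 to 267 of Rps3a1, counted from 1 at the start codon.
Rplp0: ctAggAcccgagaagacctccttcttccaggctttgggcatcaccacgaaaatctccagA
Gm8730: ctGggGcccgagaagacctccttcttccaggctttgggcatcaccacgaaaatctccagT
Rpl34: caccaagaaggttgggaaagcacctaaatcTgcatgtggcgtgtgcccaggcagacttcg
Rpl34-ps1: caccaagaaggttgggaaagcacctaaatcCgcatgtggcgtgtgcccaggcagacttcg
Rpl30: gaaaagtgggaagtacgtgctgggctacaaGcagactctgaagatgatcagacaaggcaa
Gm12191: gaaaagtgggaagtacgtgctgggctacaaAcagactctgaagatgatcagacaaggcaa
Rps3a1: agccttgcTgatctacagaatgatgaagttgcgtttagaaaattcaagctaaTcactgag
Rps3a3: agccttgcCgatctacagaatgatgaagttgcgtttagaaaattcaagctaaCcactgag

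Gm8730 differs from Rplp0 at 12 of the 954 bases of the coding sequence, and the longest stretch without a difference is 170 bases. Rpl34-ps1 differs from Rpl34 at 2 of 354 bases (longest identical stretch 185), Gm12191 from Rpl30 at 1 of 348 (252) and Rps3a3 from Rps3a1 at 9 of 795 (215). A read from within such a stretch fits the parent and the copy equally, so the authors' counting could split the reads of these genes, and their separate values are uncertain.

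In all, 676 copies of 75 of the genes were listed, 500 of them with a read. They summed to 1074, 833 and 1299 CPM in the LT mice and 834, 1000 and 967 CPM in the Fpn-LKO mice. For 11 of the 80 genes in the fit the copies held at least 10% of the reads of gene and copies together, and the share was highest for Rps3a1 (59.5%), Rpl34 (46.9%), Rps13 (35.2%) and Rplp0 (33.1%). Adding the copies' reads to the parent is a processing choice made after the data were seen.

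Rpl34, a large-subunit gene on chromosome 3, varied most. It had 78.8, 44.2 and 14.9 CPM in the LT mice and 39.4, 41.5 and 52.5 CPM in the Fpn-LKO mice, so LT held both its highest and its lowest library. Its copies summed to 0.201, 34.7 and 85.4 CPM in the LT mice and 35.5, 40.4 and 43.9 CPM in the Fpn-LKO mice, high where the gene was low. Together they had 79.2, 78.8 and 100.3 CPM in the LT mice and 74.7, 81.9 and 96.5 CPM in the Fpn-LKO mice, and replicate 3 was again the highest of each group.

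Rps3a1, a small-subunit gene on chromosome 3, had 108, 88.1 and 123 CPM in the LT mice and 88.6, 97.9 and 223 CPM in the Fpn-LKO mice. Its log2 fold change of 0.36 (SE 0.35) rested on Fpn-LKO replicate 3, without which it was -0.18. Its copies, mostly Rps3a3 and Rps3a2, summed to 204, 177 and 217 CPM in the LT mice and 175, 180 and 115 CPM in the Fpn-LKO mice, lowest in that same library. Together they had 312, 265 and 340 CPM in the LT mice and 263, 278 and 338 CPM in the Fpn-LKO mice.

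Rpl30, a large-subunit gene on chromosome 15, had 60.8, 72.9 and 91.7 CPM in the LT mice and 72.8, 52.1 and 121 CPM in the Fpn-LKO mice. Its copies had 48.03, 23.0 and 27.0 CPM in the LT mice and 22.4, 43.2 and 1.88 CPM in the Fpn-LKO mice. The sum was 109, 95.8 and 119 CPM in the LT mice and 95.04, 95.4 and 123 CPM in the Fpn-LKO mice, in the order of the family.

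For each of the 79 genes the distance from the family was measured as the SD over the 6 libraries of its deviation minus the median deviation of the other genes. The median of this SD was 0.069, and it was above 0.2 for 8 genes (Rpl34, Rpl22l1, Rps3a1, Rpl30, Rplp0, Rps2, Rps13 and Rps16). With the copies added it fell from 0.855 to 0.0806 for Rpl34, from 0.377 to 0.0215 for Rps3a1, from 0.348 to 0.0422 for Rpl30, from 0.315 to 0.0952 for Rplp0, from 0.215 to 0.0715 for Rps13 and from 0.249 to 0.136 for Rps2. It stayed above 0.2 for Rpl22l1 (0.374) and Rps16 (0.207). Over all 79 genes it was lower with the copies added in 47 and higher in 32, by more than 0.05 in 6 and 1.

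The exception was Rpl3, which lines the peptidyl transferase centre. Rpl3 alone had 244, 184 and 237 CPM in the LT mice and 201, 210 and 278 CPM in the Fpn-LKO mice, close to the family. Its copies, led by Rpl3-ps1 on chromosome X (31.3, 68.4 and 89.3 CPM in the LT mice and 4.78, 36.6 and 6.81 CPM in the Fpn-LKO mice), did not mirror it, and adding them raised the SD from 0.0908 to 0.165 and moved the log2 fold change from 0.050 to -0.27 (SE 0.17).

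Fitted with the copies added, 80 genes of the family again gave 0 past the adjusted threshold (0.0177% of 16927 genes) and 0 at an unadjusted p under 0.05 by the same edgeR test. The median log2 fold change was then -0.018, and those of the 79 genes lay between -0.52 (Rpl22l1) and 0.13 (Rps9).

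**Figure D4:**
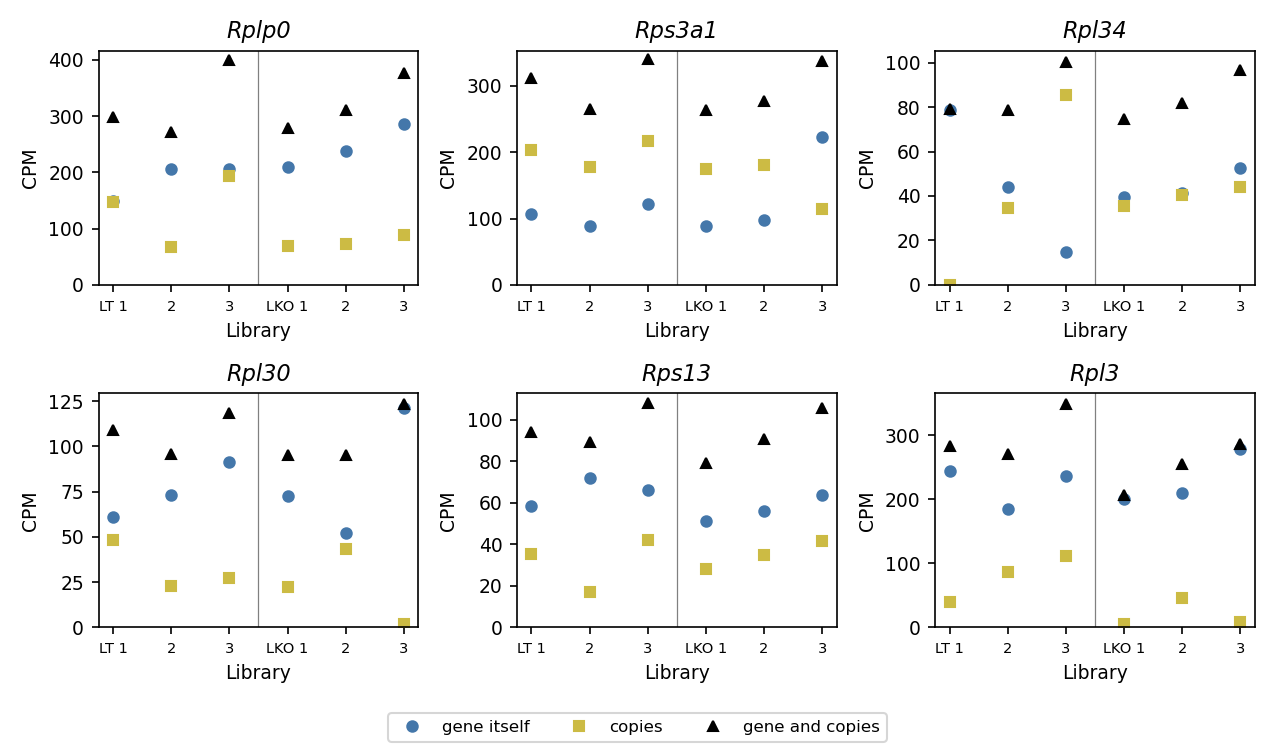
CPM of 6 ribosomal protein genes (blue circles), of their near-identical copies summed (yellow squares) and of gene and copies together (black triangles) in each library, LT 1 to 3 and Fpn-LKO (LKO) 1 to 3. For Rplp0, Rps3a1, Rpl34, Rpl30 and Rps13 the black triangles follow the level of the family, highest in replicate 3 of each group. For Rpl3 replicate 3 is also the highest of each group, with LT replicate 3 (349) above the rest and Fpn-LKO replicate 1 (206) lowest.

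Rps2 and Rps13, both of the small subunit, had the smallest unadjusted p-values among the genes with a negative fold change after Rpl22l1. Rps13 had 58.4, 72.0 and 66.05 CPM in the LT mice and 51.2, 55.9 and 64.0 CPM in the Fpn-LKO mice, a log2 fold change of -0.20 (SE 0.13) that was -0.080 (SE 0.14) with the copies added. Rps2 had 335, 351 and 443 CPM in the LT mice and 372, 289 and 310 CPM in the Fpn-LKO mice, -0.22 (SE 0.16), and 0.00022 (SE 0.16) with its 44 copies added.

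Of the 347 copies in the fit, 1 was past the adjusted threshold (0.0232% of all genes), and 2 were higher and 9 lower at an unadjusted p under 0.05 (2.62% and 2.19% of all genes). The first was Gm10036, a copy of Rpl11 with 1.49, 1.16 and 1.09 CPM in the LT mice and 14.4, 13.1 and 15.9 CPM in the Fpn-LKO mice (log2 fold change 3.53, adjusted p = 0.00311, edgeR quasi-likelihood). Rpl11 itself had 149, 125 and 157 CPM in the LT mice and 127, 120 and 143 CPM in the Fpn-LKO mice, and its log2 fold change of -0.14 (SE 0.13) was -0.0085 (SE 0.13) with the copies added. Gm6472, a copy of Rps7 that differs from it at 3 of 585 coding bases, had 39.3, 29.5 and 41.4 CPM in the LT mice and 17.3, 17.4 and 20.97 CPM in the Fpn-LKO mice, without overlap (log2 fold change -0.98, SE 0.16, adjusted p = 0.401). Rps7 had 168, 149 and 188 CPM in the LT mice and 159, 170 and 202 CPM in the Fpn-LKO mice. Whether these differences arise at the copies or in the division of reads was not tested.

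Rpl5 and Rpl11 bind the 5S rRNA and, outside the ribosome, hold back Mdm2, which lets p53 accumulate when ribosome assembly fails. Rpl5 had 309, 275 and 323 CPM in the LT mice and 267, 293 and 340 CPM in the Fpn-LKO mice, a log2 fold change of -0.012 (SE 0.14). Among 10 p53 readouts in the fit 0 passed the adjusted threshold (0.0232% of all genes), and 3 were higher at an unadjusted p under 0.05 (2.62% of all genes). Ccng1 had 45.1, 43.7 and 39.8 CPM in the LT mice and 55.7, 48.9 and 49.9 CPM in the Fpn-LKO mice (adjusted p = 0.982), and Eda2r (adjusted p = 0.791) and Cdkn1a (adjusted p = 0.982) had at most 2.24 and 1.39 CPM in any library. The log2 fold change was above 0 for 7 of the 10 and below 0 for Sesn1 (-0.12), Bbc3 (-0.20) and Zmat3 (-0.064). For Mdm2, itself among the readouts, it was 0.033 (SE 0.11). Rps27l, a paralog of Rps27 known as a p53 target, had 109, 85.4 and 102 CPM in the LT mice and 101, 97.2 and 101 CPM in the Fpn-LKO mice, a log2 fold change of 0.0095 (SE 0.12).

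Genes whose loss in 1 copy causes Diamond-Blackfan anemia, an inherited failure of red cell production, were listed as a group. The 20 genes summed to 2793, 2385 and 3047 CPM in the LT mice and 2496, 2603 and 3106 CPM in the Fpn-LKO mice, in the order of the family, with a median log2 fold change of 0.013 and 11 above 0. Rps19, the gene most often affected, had 119, 94.1 and 129 CPM in the LT mice and 103, 108 and 139 CPM in the Fpn-LKO mice. The log2 fold changes of Rps24 (-0.045), Rps26 (-0.044) and Rpl35a (0.017) were each smaller than their standard errors, which lay between 0.13 and 0.16. The 8 genes whose proteins line or ring the exit tunnel, Rpl39 among them (49.2, 43.4 and 65.7 CPM in the LT mice and 48.7, 46.1 and 60.8 CPM in the Fpn-LKO mice), had a median log2 fold change of 0.023.

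Members with further roles were as flat. Rpsa, which also serves as a laminin receptor, had 318, 275 and 419 CPM in the LT mice and 260, 313 and 406 CPM in the Fpn-LKO mice. Rps3, which lies at the mRNA entry and is known in DNA repair, had 241, 207 and 260 CPM in the LT mice and 220, 222 and 284 CPM in the Fpn-LKO mice. Rpl13a, known from the control of inflammatory mRNAs, had 206, 188 and 285 CPM in the LT mice and 200, 217 and 293 CPM in the Fpn-LKO mice. Each of these had its highest CPM in replicate 3 of each group. Rps27a is made as a fusion with ubiquitin, and its log2 fold change was -0.053 (SE 0.15). For Rpl7, Rpl10, Rpl41 and Rps27 the values were 0.036, -0.040, 0.012 and -0.024, with standard errors of 0.15 to 0.16.

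Among the paralogs Rpl22l1 stood farthest from the family. Rpl22l1, on chromosome 3 (28805508 to 28807424), had 22.3, 23.2 and 41.2 CPM in the LT mice and 14.7, 19.0 and 26.2 CPM in the Fpn-LKO mice, and the groups overlapped through Fpn-LKO replicate 3. Its log2 fold change was -0.53 (SE 0.29), with a 95% interval of 0.429- to 1.11-fold and an adjusted p of 0.982 from the edgeR quasi-likelihood fit. Its copies held 4.55% of the reads, and with them the value was -0.52. Rpl22, the parent form, whose protein is known to repress Rpl22l1, had 106, 81.5 and 111 CPM in the LT mice and 90.8, 87.6 and 112 CPM in the Fpn-LKO mice, a log2 fold change of -0.038 (SE 0.16). Rps16 had 68.5, 63.8 and 92.0 CPM in the LT mice and 60.6, 73.2 and 62.2 CPM in the Fpn-LKO mice, without the high value in Fpn-LKO replicate 3, and its copies held 7.04% of the reads. Rps9 had 266, 283 and 258 CPM in the LT mice and 266, 259 and 353 CPM in the Fpn-LKO mice, flat in every library but the last.

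Of the paralogs not yet described, Rpl7l1, a factor of large-subunit assembly, had 54.2, 53.8 and 66.6 CPM in the LT mice and 60.1, 56.8 and 72.6 CPM in the Fpn-LKO mice. Rpl10l and Rpl39l, known from the testis, had 0 counts in every library, and a count of 0 allows up to 3 counts. Rpl3l, the form of Rpl3 in striated muscle, was counted in 1 library only, at 0.0629 CPM. These 3 genes had 0 counts in more than 1 library and did not enter the fit. Rpl32l entered it at 0.231 to 0.587 CPM. Rps4l, listed as a pseudogene and so outside the 83, had 4.30, 3.67 and 8.94 CPM in the LT mice and 3.12, 7.48 and 7.97 CPM in the Fpn-LKO mice.

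Levels between genes were compared per length, in deposited TPM averaged over the 6 libraries. The median of the 80 genes was 254 TPM, and 71 of them had at least 100 TPM. The highest were Rps18 (604), Rpl10 (582), Rps27 (562), Rpl41 (543) and Rps9 (520), and their ranges over the libraries overlapped, Rps18 with 508 to 703 TPM and Rps9 with 420 to 659 TPM. Apart from Rpl32l (0.933) and the 3 genes outside the fit, the lowest were Rps15a (22.6), Rpl7l1 (30.4), Rps20 (51.2), Rpl22 (58.1) and Rpl22l1 (63.2).

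Some of the low values went with a long transcript. The length implied by a gene's counts and FPKM was 5986 bases for Rps15a, 4016 for Rps20, 3037 for Rpl7l1 and 2570 for Rpl22, and 583 for Rpl22l1. In counts, Rps15a (74.4 to 104 CPM) and Rps20 (112 to 160 CPM) stood near the median gene of the family (138 CPM), whereas Rpl22l1 was low on both scales. Whether those long transcripts are the ones made in these livers was not tested, so the TPM of these genes is uncertain.

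**Figure D5:**
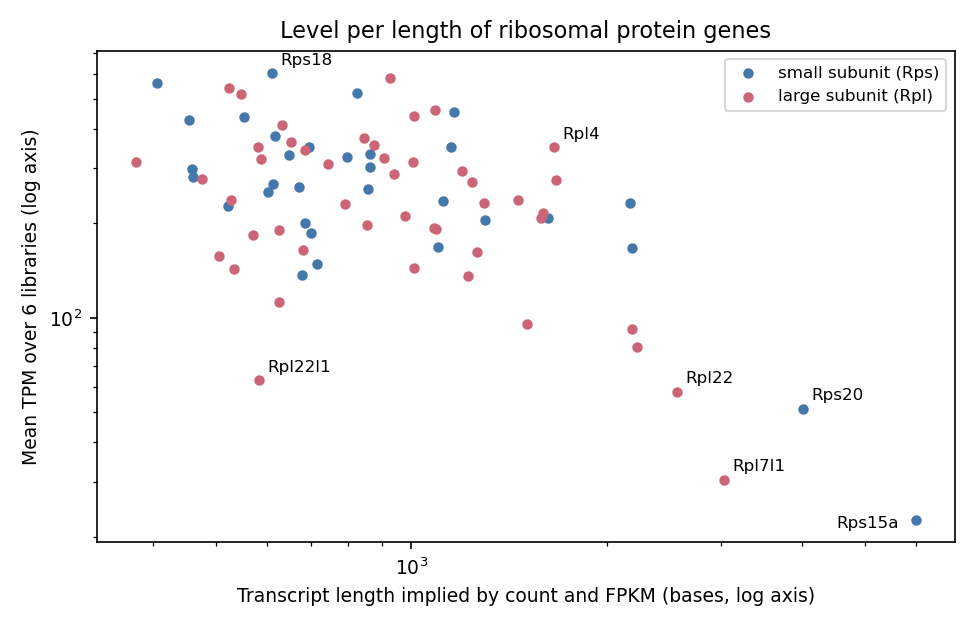
Mean TPM over the 6 libraries against the transcript length implied by counts and FPKM, for the 79 ribosomal protein genes with at least 10 CPM, small-subunit genes in blue and large-subunit genes in red, both axes log. The lowest TPM belong to the longest implied transcripts (Rps15a, Rpl7l1, Rps20 and Rpl22), and Rpl22l1 is low at 583 bases.

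Rpl29, left out of the family, was the ribosomal protein gene that passed the adjusted threshold, with 5.64, 4.36 and 8.31 CPM in the LT mice and 73.0, 73.2 and 43.25 CPM in the Fpn-LKO mice (adjusted p = 0.0289, edgeR quasi-likelihood). Its lowest Fpn-LKO library was the replicate in which the family was highest. Reads of any copies of Rpl29 were not added to it, and whether the division of reads had a part in this difference was not tested.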

How the data were processed

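Livers of 3 LT and 3 Fpn-LKO mice were sequenced in bulk, 1 library per mouse. According to the methods the libraries came from total RNA depleted of rRNA, whereas the labels name a stranded mRNA kit. The submitters' processing notes name bcl2fastq 2.20.0, FastQC 0.11.7, HISAT2 2.1.0, Bowtie2 2.3.4.1, StringTie 2.1.3b and the build mm10. The authors deposited read counts per gene, not normalized, and FPKM and TPM, which they scaled to transcript length and library size.

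Counts were tested with edgeR 4.0.16 in R 4.3.3 (TMM scaling, quasi-likelihood test, Benjamini-Hochberg adjustment over 17274 genes), without those at 0 reads in more than 1 library. Standard errors came from the F statistic. Alternatives were RLE size factors, DESeq2 1.42.0, exactTest, 2 other filters, a replicate block, limma 3.58.1 on the log2 scale (TPM + 1 or TPM + 0.1, mean TPM 1 or more), each mouse left out, and, added after the data were seen, the reads of copies added to the parent. Copies were transcripts of other genes with at least 90% identity over at least 100 bases and 70% of their length (BLAST 2.17.0, GENCODE M21). The tests were tried on simulated data.

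Genes were named by role, by the 5 smallest p-values in each direction, by the 5 highest and lowest TPM, and by the 5 most variable levels. The genes and lists were chosen with earlier results of these data known. The labels do not say that a replicate number marks a shared litter or day. Deviations from the group means of same-numbered mice correlated by 0.129, -0.0095 and 0.045 over all genes in the fit, and by 0.338, 0.109 and 0.238 over those with at least 10 CPM, so the pairing is uncertain, and values with the block are given where they change a count. Some results are not reported here.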

Additional observations from a re-analysis of the deposited data

How the results depend on the processing

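The count of ribosomal protein genes past the adjusted threshold was 0 under every alternative run. At an unadjusted p under 0.05 the count of higher genes was 1 (Rplp0) with DESeq2, with limma on log2(TPM + 1) and on log2(TPM + 0.1), and between 0 and 1 with a mouse left out, the 1 arising without Fpn-LKO replicate 1. The count of lower genes was between 0 and 1 with a mouse left out, the 1 being Rpl22l1 without Fpn-LKO replicate 3. With the replicate block these counts were 1 (Rplp0) and 1 (Rpl22l1), with a median log2 fold change of -0.0089, and the block changed no other call. The median log2 fold change lay between -0.13 (without Fpn-LKO replicate 3) and 0.072 (without LT replicate 3) with a mouse left out, so its sign rests on single mice, and it was 0.081 with limma on log2(TPM + 1), beside 0.083 for all genes. The summed level, Fpn-LKO over LT, was 0.913 to 1.06 with a mouse left out, 1.06 in TPM, 0.994 with RLE size factors and 0.981 with the copies added. With DESeq2 1 biogenesis gene (Riok2) passed the adjusted threshold, where edgeR gave 0. The log2 fold change of Rps3a1 lay between -0.18 (without Fpn-LKO replicate 3) and 0.60 (without Fpn-LKO replicate 1), and of the named genes no other turned its sign with both values larger than their standard error. The counting error is small at these depths, and the spread between 3 mice per group limits what can be seen.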
